A study of Mus musculus with 29 samples.

Results

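The miRNA content of serum and of tibialis anterior, a shin muscle of mostly fast fibres, was compared in C57BL/6 mice with disuse-induced muscle wasting. The 10 libraries were taken by their labels: 5 from the serum and 5 from the muscle of 6-month-old disuse mice, out of 29 libraries in the series. Counts came from 695 mature miRNAs that had a value in all 29 libraries, out of 1183 in the deposited table, and 644 of the 695 had at least 1 count in the 10 disuse libraries. For reference, 5 serum and 5 muscle libraries of 6-month-old young control mice of the same strain were used, and 9 libraries of 24-month-old mice entered the fits against young only for the scaling, the filter on low counts and the shared estimate of the spread. How disuse was imposed, and for how long, is not given in the sources used here. No label states that serum and muscle came from the same animals, or that numbered samples are separate animals. The p-values then reflect only the spread among these libraries, which could be technical. For muscle, 2 µg of Trizol-extracted RNA entered each library. For serum, 10 ng entered each library, isolated from 300 µl by a kit for serum and plasma. Source, extraction and input therefore cannot be told apart in any serum to muscle difference.

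A miRNA is a short RNA, cut as a duplex from the 5p and 3p arms of a hairpin, that guides Argonaute proteins to messenger RNAs through its seed, bases 2 to 8. Striated muscle makes a small set of miRNAs known as myomiRs, among them miR-1, miR-133, miR-206, miR-208 and miR-499, several of which are encoded next to or inside muscle genes. Serum holds miRNAs that are released by blood cells, endothelium, liver and other organs, bound to Argonaute or lipoproteins or enclosed in vesicles, and myomiRs in blood are used as markers of muscle injury. miR-486 lies in an intron of Ank1 and is made both in muscle and in red cell precursors, so it marks neither source alone.

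The sequences that the results turn on are given from RefSeq (GRCm38.p6), 5′ to 3′, with the seed in capitals. 602 of the 695 miRNAs had a sequence in the RefSeq table. The myomiRs miR-133b-3p and miR-206-3p, with miR-149-5p, miR-155-5p, miR-196a-5p, let-7a-5p and let-7c-5p, are shown as miRNAs that were lower in disuse serum than in disuse muscle:
miR-133b-3p: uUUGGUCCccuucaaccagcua
miR-206-3p: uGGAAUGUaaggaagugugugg
miR-149-5p: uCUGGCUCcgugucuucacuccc
miR-155-5p: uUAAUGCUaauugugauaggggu
miR-196a-5p: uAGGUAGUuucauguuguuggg
let-7a-5p: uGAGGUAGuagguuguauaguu
let-7c-5p: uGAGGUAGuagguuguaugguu

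Among those higher in disuse serum are shown the red cell miRNA miR-451a, miR-146a-5p and miR-184-3p, the pair miR-10a-5p and miR-10b-5p, miR-192-5p with miR-215-5p, and the miR-200 family of epithelial cells:
miR-451a: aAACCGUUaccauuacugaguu
miR-146a-5p: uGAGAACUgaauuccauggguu
miR-184-3p: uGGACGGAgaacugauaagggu
miR-10a-5p: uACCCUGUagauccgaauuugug
miR-10b-5p: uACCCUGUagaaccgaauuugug
miR-192-5p: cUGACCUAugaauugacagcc
miR-215-5p: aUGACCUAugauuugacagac
miR-141-3p: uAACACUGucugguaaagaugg
miR-200a-3p: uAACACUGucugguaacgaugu
miR-200b-3p: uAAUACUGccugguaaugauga
miR-429-3p: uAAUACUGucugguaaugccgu
miR-200c-3p: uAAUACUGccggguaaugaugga

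Counting positions from 1 at the 5′ end, miR-10a-5p and miR-10b-5p differ by U12A and let-7a-5p and let-7c-5p by A19G, so reads of such pairs are separated by a single base and their split is uncertain. miR-141-3p and miR-200a-3p share a seed and differ by A17C and G22U, and miR-200b-3p, miR-429-3p and miR-200c-3p share the other seed of the family. The family lies in a pair of clusters on the minus strand, miR-429-3p (chr4:156053916-156053937), miR-200a-3p (chr4:156054911-156054932) and miR-200b-3p (chr4:156055685-156055706) in one, and miR-141-3p (chr6:124717917-124717938) and miR-200c-3p (chr6:124718324-124718346) in the other. miR-206-3p (chr1:20679055-20679076) and miR-133b-3p (chr1:20682834-20682855) are neighbours on the plus strand. miR-133a-3p is near-identical to miR-133b-3p, and miR-486 and miR-3107 are the opposite strands of 1 locus with near-identical products, so counts within each pair are likewise uncertain.

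Disuse serum libraries held 128216 to 309133 counts (median 174378) and disuse muscle libraries 254624 to 4822157 (median 2298437), with disuse muscle 3 the shallowest of the muscle libraries. Levels are given as CPM, counts per 1000000 of the library total. A count of 0 allows up to 9.70 to 23.4 CPM in a disuse serum library and 0.622 to 11.8 CPM in a disuse muscle library (3 counts, counting error only). Between 318 and 425 miRNAs were detected per disuse serum library and between 369 and 538 per disuse muscle library. After thinning each library to 128216 counts the ranges were 318 to 349 in serum and 316 to 330 in muscle. All 40 pairs of replicate libraries within the 4 disuse and young groups differed beyond counting noise, with a chi-square per degree of freedom of at least 13.4. None was therefore a mere recount of another. The check cannot tell separate animals from separate libraries of the same animal.

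Disuse serum and disuse muscle were each dominated by a few miRNAs, but by different ones. In disuse serum the leading miRNA was miR-486-5p, which took 18.1%, 23.9%, 28.6%, 23.2% and 25.9% of the counts of the 5 libraries. In disuse muscle it was miR-133a-3p, the main miRNA of striated muscle, with 45.6% to 49.1%. The leading miRNA therefore took 24.0% ± 3.86 of a disuse serum library and 47.8% ± 1.64 of a disuse muscle library (SD, n = 5 each), and the ranges did not overlap (two-sided exact permutation test, p = 0.00794, the smallest this design allows; 0.0119 after Benjamini-Hochberg adjustment over 3 such tests). Of the counts, 50% came from 3 to 5 miRNAs in a disuse serum library and from 2 in every disuse muscle library, and 90% came from 24 to 31 in serum and 22 to 24 in muscle. The effective number of miRNAs, the exponential of the Shannon entropy of their shares, was 21.7 ± 4.03 in disuse serum and 13.1 ± 0.928 in disuse muscle (exact permutation p = 0.00794, adjusted 0.0119). In these values miR-486-5p and miR-3107-5p, whose split is uncertain, were counted separately. Counting them together would raise the top share of serum and lower the effective number of both sources, by amounts that were not tested.

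After miR-486-5p, disuse serum was led by miR-3107-5p (122686 ± 20575 CPM), miR-10b-5p (114151 ± 20412), miR-191-5p (70324 ± 7165), miR-10a-5p (68579 ± 11994) and miR-22-3p (38408 ± 11737), followed by miR-30d-5p, miR-146a-5p, miR-92a-3p and miR-30a-5p at 15610 to 22786 CPM. After miR-133a-3p, disuse muscle was led by miR-486-5p (58842 ± 5418 CPM), miR-22-3p (47811 ± 6035), miR-378a-3p (38429 ± 3719), a miRNA of an intron of Ppargc1b, and miR-3107-5p (27080.1 ± 2431), followed by miR-181a-5p, miR-26a-5p, miR-150-5p, let-7c-5p and miR-92a-3p at 17776 to 26116 CPM. The lists of the 10 most abundant shared 4 miRNAs, or 40% of each: miR-486-5p, miR-3107-5p, miR-22-3p and miR-92a-3p. The lists of 20 shared 11 (55% of each), and the lists of 50 shared 28 (56%). Over the 192 miRNAs tested, the log2 mean levels of the sources had a Pearson correlation of 0.436 (1 CPM added, a description across miRNAs, which are not independent replicates).

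**Figure D1:**
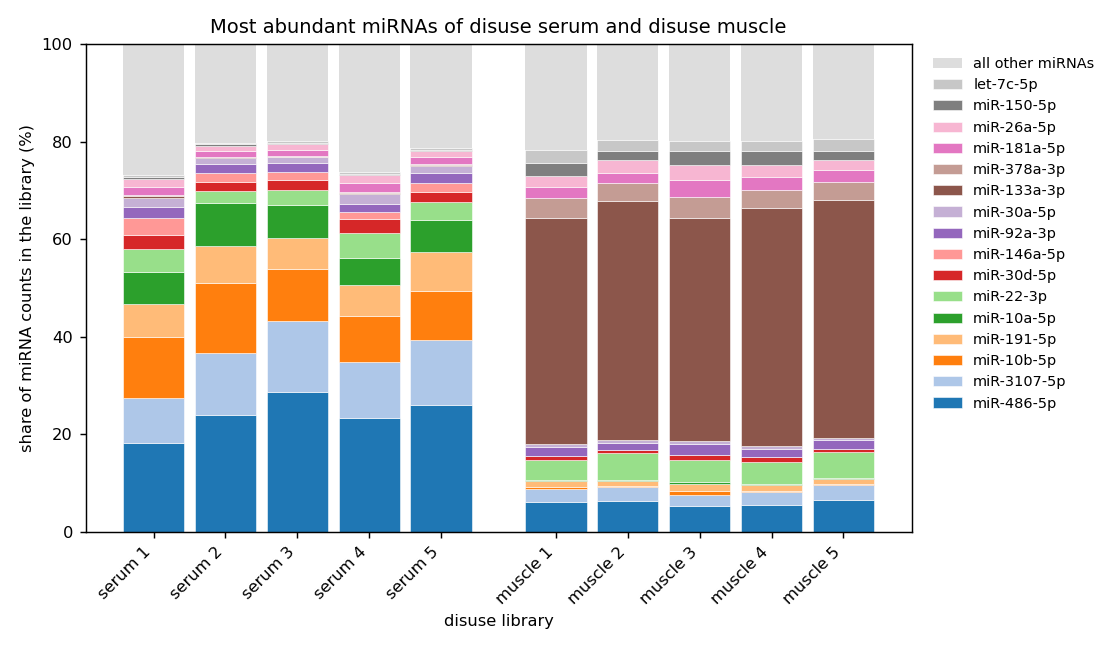
Share of the counts of each disuse library (percent, vertical axis) taken by the 16 miRNAs that are among the 10 most abundant of disuse serum or of disuse muscle, 5 serum libraries on the left and 5 muscle libraries on the right. miR-486-5p takes 18.1% to 28.6% of each serum library, and miR-133a-3p takes 45.6% to 49.1% of each muscle library.

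miR-451a of the red cell and the miRNAs of liver and epithelia stood far higher in disuse serum, and the striated muscle miRNAs, the let-7 family and a set of other tissue miRNAs stood far higher in disuse muscle. Of 192 miRNAs with enough counts, 166 (86.5%) passed an adjusted p under 0.05 between disuse serum and disuse muscle (edgeR's quasi-likelihood test with TMM scaling and Benjamini-Hochberg adjustment). 73 (38%) were higher in serum and 93 (48.4%) lower. With library totals in place of TMM the split was 88 higher and 73 lower. Over the tested miRNAs the median log2 fold change was -0.36 with TMM, 0.13 with library totals, -0.15 with DESeq2's factors and -0.46 with upper-quartile factors. Fold changes are given on the TMM scale, and those smaller than these shifts have no settled direction. All 5 serum libraries lay above or below all 5 muscle libraries on the TMM scale for 149 miRNAs (77.6%), above for 68 (35.4%) and below for 81 (42.2%). Values per library are given as CPM, and groups near each other can overlap on that scale but not on the TMM scale. In bulk RNA, fewer cells of a type and less RNA per cell cannot be told apart. miRNAs scarce in 1 source entered the test through their counts in the other, so counts and medians over tested members of a group are descriptions. With so many miRNAs called, a call by itself does not set a miRNA apart, and the sizes are described by group. Counts of called members in each group below stand against the shares of all tested miRNAs, 38% higher and 48.4% lower.

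**Figure D2:**
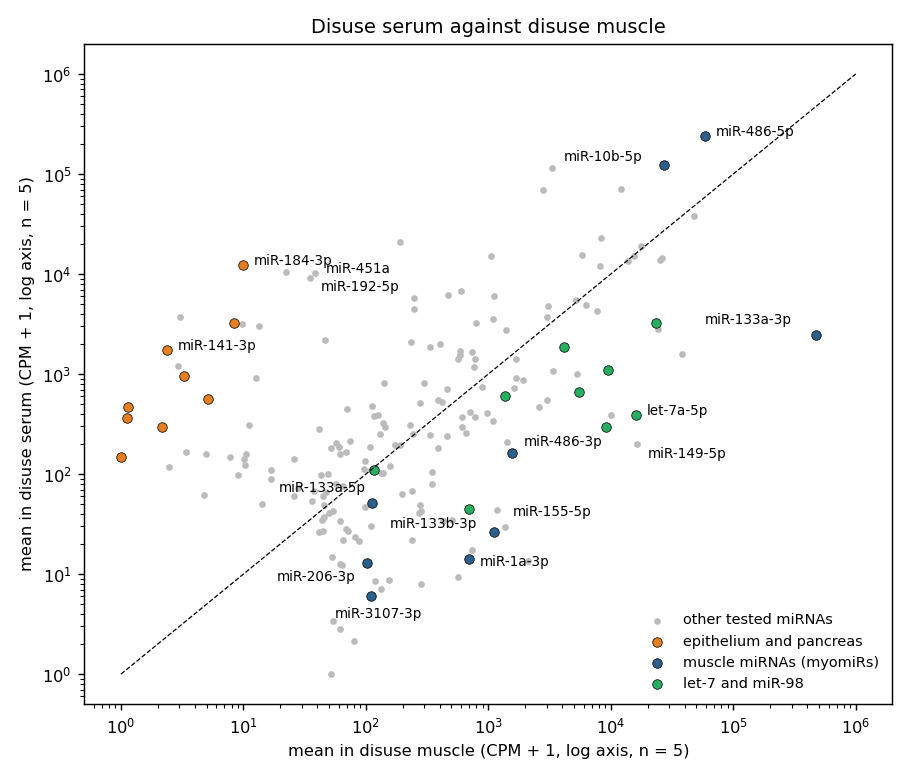
Mean level of each of the 192 tested miRNAs in disuse serum (vertical) against disuse muscle (horizontal), both as CPM + 1 on log axes, n = 5 libraries each; the dashed line marks equal levels. The 9 tested epithelial and pancreatic miRNAs lie far above the line, 7 of the 9 tested muscle miRNAs and all 9 let-7 and miR-98 members lie below it, and miR-486-5p and miR-3107-5p lie above it.

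Striated muscle miRNAs made up 0.257% ± 0.145 of disuse serum counts and 48.0% ± 1.68 of disuse muscle counts (SD, n = 5 each; 9 measured miRNAs of the miR-1, miR-133, miR-206, miR-208 and miR-499 families). Of these 9, 5 had enough counts to test, and all 5 were lower in disuse serum, with a median log2 fold change of -5.87 against -0.36 over all tested miRNAs. They were present in serum at low levels: 4 of the 5 had counts in all 5 serum libraries, and miR-1a-3p in 4. miR-133a-3p had 3549.8, 835, 1064, 3403 and 3495 CPM in disuse serum 1 to 5, against 463984, 490975, 455998, 488647 and 488716 CPM in disuse muscle 1 to 5. Every serum library thus lay more than 100-fold below every muscle library, and disuse serum 1, 4 and 5 were above disuse serum 2 and 3 (log2 fold change -8.14, SE 0.41, adjusted p = 1.01e-11). Set against the muscle mean, serum miR-133a-3p stood at 0.517% ± 0.291 of the muscle level. Both levels are relative to their own library total, so this is a ratio of shares and not a fraction of muscle miRNA that reached the blood.

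miR-133b-3p, the near-identical relative of miR-133a-3p from the miR-206 locus, had 40.1, 7.80, 5.98, 38.8 and 33.9 CPM in disuse serum (27 counts in all), against 917, 1487, 1056, 1074 and 1061 CPM in disuse muscle. The same 3 serum libraries, 1, 4 and 5, were the high ones (log2 fold change -5.87, SE 0.30, adjusted p = 1.24e-11). miR-1a-3p, which with miR-133a promotes muscle differentiation, had 17.2, 0, 12.0, 3.23 and 33.9 CPM in disuse serum, from 12 counts, against 489, 688, 397, 472 and 1419 CPM in disuse muscle (log2 fold change -6.35, SE 0.61, adjusted p = 4.51e-08). Its level in disuse muscle was itself low beside miR-133a-3p, although miR-1 is a defining miRNA of this tissue. miR-206-3p, a miRNA of slow and regenerating fibres, had 11.5, 7.80, 5.98, 22.6 and 11.3 CPM in disuse serum, from 13 counts, against 75.4, 112, 47.1, 80.1 and 192 CPM in disuse muscle (log2 fold change -3.57, SE 0.54, adjusted p = 1.04e-05). The groups did not overlap for miR-133b-3p, miR-1a-3p or miR-206-3p, and the serum to muscle ratios were 2.26% ± 1.52, 1.91% ± 1.93 and 11.7% ± 6.39.

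The passenger strand miR-133a-5p was the exception among them. It had 109, 15.6, 12.0, 32.3 and 84.7 CPM in disuse serum, from 48 counts, against 107, 100.4, 189, 90.1 and 73.2 CPM in disuse muscle, and the groups overlapped in CPM but not on the TMM scale (log2 fold change -1.56, SE 0.36, adjusted p = 0.000803). Its serum to muscle ratio was 45.4% ± 39.0, with disuse serum 1 near the muscle mean. The cardiac and slow-fibre myomiRs were at or near 0 in serum: miR-499-5p had 0 counts among 956186 in disuse serum, against 379 counts and 23.6 to 35.6 CPM in disuse muscle, and was at least 9.92-fold lower in serum, with the floor of 3 counts taken over the 5 serum libraries. miR-208a-3p and miR-208b-3p had 1 count each in disuse serum, against 42 and 72 counts in disuse muscle, and miR-1b-3p had 0 counts in both. At this depth serum levels of miR-208a-3p, miR-208b-3p and miR-499-5p could not be measured.

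Other abundant miRNAs of disuse muscle stood in serum at widely different fractions of their muscle level. miR-149-5p had 292, 85.8, 131, 262 and 231 CPM in disuse serum, against 16868, 15398, 16978, 17059 and 15444 CPM in disuse muscle, a ratio of 1.23% ± 0.540 (log2 fold change -6.83, SE 0.24, adjusted p = 1.11e-13). miR-378a-3p had 2231, 1053, 1255, 1779 and 1575 CPM in disuse serum, against 34981 to 44112 CPM in disuse muscle, a ratio of 4.11% ± 1.20 (log2 fold change -5.10, SE 0.18, adjusted p = 1.10e-13). For miR-149-5p, as for miR-133a-3p, disuse serum 1, 4 and 5 exceeded disuse serum 2 and 3, and miR-378a-3p and miR-22-3p had the same 3 libraries highest. miR-22-3p, broadly expressed in striated muscle and other tissues, overlapped between the sources in CPM but not on the TMM scale, with 47185, 22969, 31602, 52165 and 38119 CPM in disuse serum, against 39894, 54379, 46241, 45198 and 53342 CPM in disuse muscle. It was called lower (log2 fold change -0.84, SE 0.19, adjusted p = 0.000555) but not with library totals, where its log2 fold change was -0.32. Among miR-133a-3p, miR-149-5p, miR-378a-3p and miR-22-3p, the ratios of serum to muscle level thus ran from 0.517% for miR-133a-3p to 80.3% for miR-22-3p. For miR-486-5p and miR-3107-5p, also abundant in muscle, they were 407% and 453%. The ratios did not share a common value.

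**Figure D3:**
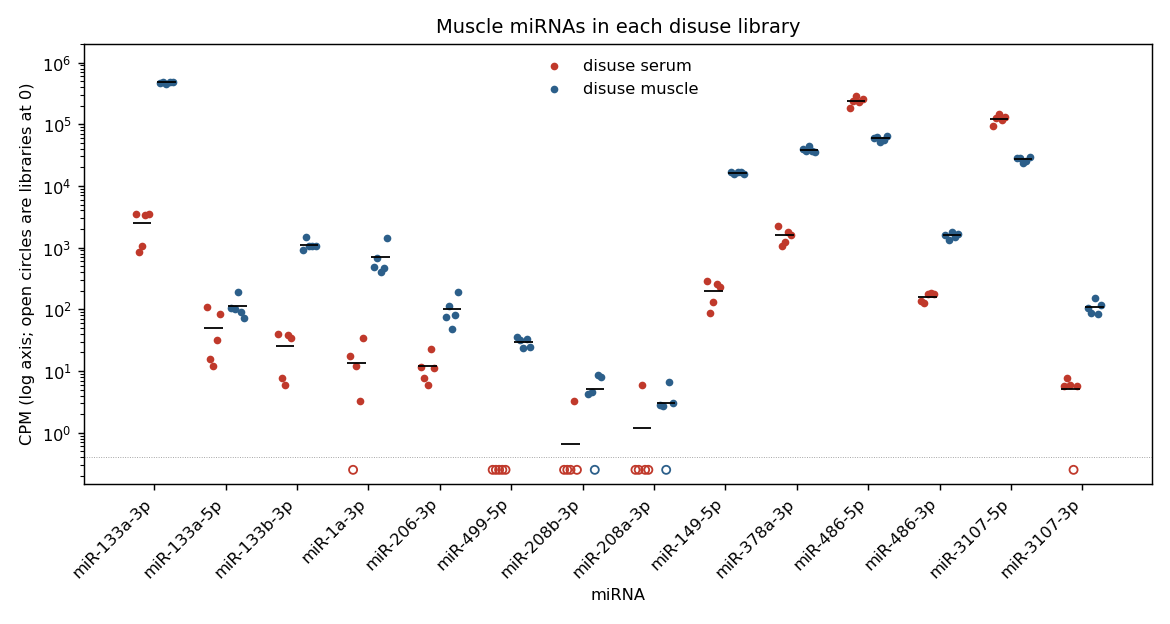
Level of muscle miRNAs in each disuse library (CPM, log axis), disuse serum left of disuse muscle for each miRNA, with 1 point per library, open circles for libraries at 0 and bars for the mean of 5. miR-133a-3p lies at 835 to 3550 CPM in serum and 455998 to 490975 CPM in muscle, while miR-486-5p and miR-3107-5p lie higher in serum.

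miR-486-5p and miR-3107-5p, the muscle and red cell miRNAs of the Ank1 locus, were higher in disuse serum than in disuse muscle. miR-486-5p had 181296, 239292, 285544, 231971 and 259427 CPM in disuse serum, against 59728, 62375, 51680.1, 55258 and 65169 CPM in disuse muscle (log2 fold change 1.57, SE 0.22, adjusted p = 5.11e-06). Every serum library lay above every muscle library, and miR-3107-5p was higher by a similar amount (log2 fold change 1.73, SE 0.22, adjusted p = 1.69e-06). The 3p arms went the other way: miR-486-3p had 138, 125, 179, 184 and 175 CPM in disuse serum, against 1617, 1310.4, 1791, 1493 and 1649 CPM in disuse muscle (log2 fold change -3.76, SE 0.20, adjusted p = 2.10e-11), and miR-3107-3p had 4 counts in all of serum, against 1190 in muscle (log2 fold change -5.14, SE 0.45, adjusted p = 1.23e-08). Over the whole muscle list, which includes these 4, 2 of 9 tested members were higher in disuse serum and 7 lower, and the list made up 36.5% ± 5.83 of disuse serum counts and 56.7% ± 2.22 of disuse muscle counts, of which all but 0.257% in serum came from the Ank1 locus.

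Most red cell miRNAs were higher in disuse serum as well. miR-451a, the Dicer-independent miRNA of erythroid cells, had 10644, 8259.5, 9807, 12389.5 and 10348 CPM in disuse serum, against 36.6, 39.4, 31.4, 42.2 and 36.8 CPM in disuse muscle (log2 fold change 7.56, SE 0.19, adjusted p = 7.16e-15). Its genomic neighbours miR-144-5p and miR-144-3p (log2 fold changes 5.69 and 5.38), miR-16-5p (3.35) and miR-25-3p (3.26) were also higher in serum. In all, 7 of 11 tested members of the erythrocyte list were higher, 3 were lower (miR-486-3p, miR-3107-3p and miR-15b-5p, the last at -0.41) and miR-92a-3p did not pass (it did, as lower, with limma-voom or upper-quartile factors), with a median log2 fold change of 1.73. For miR-15b-5p the groups overlapped. The list shares its 4 miR-486 and miR-3107 members with the muscle list. Of its members 12 were measured, none at 0 in either source. The summed level of the list ran from 33.1% to 48.1% of counts in disuse serum and from 9.94% to 11.6% in disuse muscle. The log2 ratio of counts of miR-451a over miR-23a-3p, a measure of red cell RNA in serum, was 1.69 ± 0.41 in disuse serum and 2.31 ± 0.84 in young serum (SD, n = 5 each; two-sided exact permutation test, p = 0.190), and -4.41 ± 0.20 in disuse muscle. How much of serum miR-486-5p came from red cells and how much from muscle was not tested.

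Epithelial miRNAs had the largest differences in favour of disuse serum. All 9 tested members of the epithelial and pancreatic list, of 12 measured, were higher in serum, with a median log2 fold change of 9.94, or 9.22 with miR-200a-3p, at 0 in muscle, set to its bound. miR-184-3p, a miRNA of the cornea and epidermis, had 18110.1, 16901, 5845, 7990.1 and 12652 CPM in disuse serum, against 11.1, 5.81, 11.8, 9.14 and 6.83 CPM in disuse muscle (log2 fold change 10.03, SE 0.40, adjusted p = 5.21e-13). Disuse serum 1, 2 and 5 were the high libraries, and the lowest serum library, at 5845 CPM, lay far above the highest muscle library, at 11.8 CPM. miR-141-3p had 2070.2, 1466, 1261, 2743 and 1112 CPM in disuse serum, against 0.463, 0.830, 3.93, 1.31 and 0.379 CPM in disuse muscle (log2 fold change 10.34, SE 0.35, adjusted p = 9.62e-14). The other cluster of the miR-200 family was as scarce in muscle: miR-200b-3p had 347 to 625 CPM in disuse serum, against 0 to 0.463 CPM in disuse muscle (log2 fold change 10.30, SE 0.34, adjusted p = 6.57e-14). miR-200a-3p had 141 counts in disuse serum and 0 in disuse muscle, at least 598-fold higher in serum with the floor of 3 counts taken over the 5 muscle libraries. miR-205-5p, of stratified epithelium, and miR-375-3p, of endocrine pancreas and gut, were higher by log2 fold changes of 8.32 and 8.21. miR-375-3p had 963, 2145, 556, 547 and 548 CPM in disuse serum 1 to 5, and disuse serum 2 stood apart from the others.

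Liver and gut miRNAs were next. With a shared seed, miR-192-5p and miR-215-5p are made in liver, gut and kidney. miR-192-5p had 12163, 7051, 9006, 10607 and 6735 CPM in disuse serum, against 27.3, 39.0, 35.3, 39.2 and 29.6 CPM in disuse muscle (log2 fold change 7.54, SE 0.21, adjusted p = 1.42e-14), and miR-215-5p had 5746, 3081, 3705, 3228 and 2704 CPM, against 2.78, 3.32, 0, 1.74 and 2.28 CPM (log2 fold change 9.92, SE 0.30, adjusted p = 3.10e-14). The serum values of both exceeded all muscle values, and disuse muscle 3, the shallowest muscle library, had no count of miR-215-5p. miR-122-5p, the main hepatocyte miRNA, had 1244, 1139, 1363, 1579 and 711 CPM in disuse serum, against 1.39, 2.07, 0, 3.48 and 2.66 CPM in disuse muscle (log2 fold change 8.46, SE 0.33, adjusted p = 4.55e-13). Of the liver list 4 of 5 tested members were higher in disuse serum and 0 lower (median log2 fold change 4.03), and of the intestine and kidney list 6 of 8 were higher and 2 lower (median 4.64). The 2 lower members were miR-196a-5p and miR-196b-5p, miRNAs of the Hox clusters that are expressed in posterior tissues, the hind limb included. The lists overlap in miR-192-5p and miR-194-5p.

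Leukocyte and platelet miRNAs split. Of 9 tested members, 6 were higher in disuse serum and 3 lower, with a median log2 fold change of 3.34. The list took a like share of both sources, 5.39% ± 1.16 of disuse serum counts and 5.24% ± 0.999 of disuse muscle counts (SD, n = 5 each). In muscle most of that share came from miR-181a-5p and miR-150-5p, both among its 10 most abundant miRNAs. The summed share is therefore not a measure of blood cell content. miR-142-5p, restricted to blood cells, had 12759.6, 8267, 8391, 12729 and 10682 CPM in disuse serum, against 13.9, 23.8, 7.85, 32.2 and 28.8 CPM in disuse muscle (log2 fold change 8.26, SE 0.30, adjusted p = 1.43e-13). miR-223-3p, of granulocytes and platelets, and miR-146a-5p, induced by NF-kB signalling, were also higher (log2 fold changes 5.60 and 6.22). miR-146a-5p had 35297, 18367, 17337, 15359 and 17575 CPM in disuse serum 1 to 5, with library 1 apart from the others, against 122 to 232 CPM in disuse muscle. The 3 lower members were miR-150-5p, of mature lymphocytes, miR-155-5p, of activated leukocytes, and miR-181a-5p. miR-150-5p had 2410.0 to 3406 CPM in disuse serum, against 18299 to 29895 CPM in disuse muscle (log2 fold change -3.54, SE 0.20, adjusted p = 4.08e-11), and miR-155-5p had 34.4, 39.0, 17.9, 22.6 and 28.2 CPM, against 1945, 1235, 1166, 1404 and 1105 CPM (log2 fold change -6.15, SE 0.29, adjusted p = 3.91e-12). Members of this list thus lay on both sides in groups that did not overlap.

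Of 8 tested endothelial miRNAs, 6 were higher in disuse serum, 1 lower and 1 did not pass, with a median log2 fold change of 1.27. miR-10b-5p, of the Hox clusters like miR-10a-5p, had 125704, 144155, 105355, 94697 and 100842 CPM in disuse serum, against 3121, 1945, 6939.6, 2436 and 2237 CPM in disuse muscle (log2 fold change 4.71, SE 0.31, adjusted p = 3.68e-10), with disuse muscle 3 the highest of the muscle libraries. miR-10a-5p, its close relative, followed (log2 fold change 4.23, SE 0.27, adjusted p = 2.26e-10). miR-126a-5p and miR-126a-3p, of an intron of the endothelial gene Egfl7, were higher by 2.95 and 1.00 on the log2 scale, and miR-222-3p was the lower member (-0.97).

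On the muscle side, the largest differences beyond the myomiRs, among called miRNAs with at least 100 CPM and groups that did not overlap, were those of miR-196a-5p, miR-149-5p, miR-30c-2-3p, miR-155-5p and miR-181a-2-3p. miR-196a-5p had 11.5, 0, 23.9, 16.2 and 11.3 CPM in disuse serum, against 2691, 1907, 2007, 1873 and 1972 CPM in disuse muscle (log2 fold change -7.78, SE 0.32, adjusted p = 7.53e-13). Disuse muscle 1 was the highest muscle library, and no serum library passed 23.9 CPM. miR-30c-2-3p, a passenger strand, had 5.73, 0, 0, 12.9 and 22.6 CPM in disuse serum, against 451 to 690.0 CPM in disuse muscle (log2 fold change -6.43), and miR-181a-2-3p and miR-3102-3p followed with -5.90 and -5.79.

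All 9 members of the let-7 and miR-98 family, which restrains growth and is high in differentiated tissue, were lower in disuse serum, with a median log2 fold change of -3.56. let-7a-5p had 407, 343, 341, 459 and 384 CPM in disuse serum, against 17808, 17598, 13455, 13324 and 17835 CPM in disuse muscle (log2 fold change -5.87, SE 0.22, adjusted p = 1.80e-13), and let-7c-5p had 4393, 1747, 2803, 4636 and 2749 CPM, against 26309, 23646, 20065, 21588 and 24447 CPM (log2 fold change -3.36, SE 0.22, adjusted p = 2.95e-10). Both pairs of groups were far apart, but the gap was wider for let-7a-5p than for let-7c-5p, although they differ by 1 base. let-7d-5p and let-7b-5p had differences of -5.48 and -3.64 on the log2 scale. miR-98-5p was at -0.63, near the median of all miRNAs, with groups that overlapped. The family made up 0.834% ± 0.247 of disuse serum counts and 6.98% ± 0.760 of disuse muscle counts.

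Of 9 tested fibroblast and smooth muscle miRNAs, 6 were lower in disuse serum, 2 higher and 1 did not pass, with a median log2 fold change of -1.54. Over all tested miRNAs, 48.4% were lower and 38% higher. miR-145a-5p, of smooth muscle, had 459, 351, 454, 252 and 412 CPM in disuse serum, against 14917, 6428, 11633, 10334 and 6454 CPM in disuse muscle (log2 fold change -5.15, SE 0.29, adjusted p = 4.16e-11). Its cluster partner miR-143-3p overlapped between the sources (log2 fold change -0.44, SE 0.20, adjusted p = 0.0496), its call was lost with DESeq2 and without several single libraries, and its direction turned with library totals (0.08). miR-21a-5p, a miRNA of growth and fibrosis, was higher in serum (log2 fold change 3.64, SE 0.21, adjusted p = 6.31e-11). All 4 tested neural miRNAs were lower in disuse serum (median -1.40, miR-138-5p the lowest at -1.88), although miR-338-3p was not called with library totals, and so were all 4 tested members of the imprinted Dlk1-Dio3 cluster, of 46 measured (median -2.72). Among these, miR-127-3p had 1038, 491, 783, 1705 and 1039 CPM in disuse serum, against 4777, 4032, 7815, 4736 and 4878 CPM in disuse muscle (log2 fold change -2.86, SE 0.23, adjusted p = 5.84e-09), and miR-154-5p had 0 counts in serum and 600 in muscle, at least 15.7-fold lower. Thus miR-154-5p entered the test through its muscle counts alone. The miR-30 family was mixed, with 3 of 5 higher, miR-30c-5p lower (-1.33) and miR-30b-5p not passing. Of the miR-29 family, which restrains collagen, miR-29a-3p did not pass and miR-29c-3p was lower (log2 fold change -0.47, SE 0.20, adjusted p = 0.0337). With library totals both were positive, at 0.30 and 0.06, and the call of miR-29c-3p was lost with DESeq2 and without several single libraries.

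Grouped by seed, 24 seeds had at least 2 tested members with a sequence. In 12 of them all members were called in the same direction, and in 5 members were called in both directions. Of all tested miRNAs, 38% were called higher and 48.4% lower, so agreement within such small groups does not by itself set a seed apart. The let-7 seed GAGGUAG was called lower throughout (9 of 9), although the groups overlapped for miR-98-5p. Called higher throughout were the miR-200 seeds AAUACUG (3 of 3) and AACACUG (2 of 2), and UGACCUA (miR-192-5p, miR-215-5p). Members of the miR-181 seed (ACAUUCA, 2 higher and 2 lower) and of the miR-15 and miR-16 seed (AGCAGCA, 2 higher, 1 lower and 2 not passing) split. Members of a seed group share reads where their sequences are close and are not independent.

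Both arms of a hairpin often differed between serum and muscle by unequal amounts. Of 21 hairpins with both arms tested, 4 had both arms higher in disuse serum, 6 had both lower, 6 had arms called in opposite directions and 5 had an arm that did not pass. The log2 ratio of 5p to 3p counts within a library does not depend on scaling factors. With 0.5 added to each count, it does depend on depth where an arm is near 0. It differed by more than 2 between the sources in 14 hairpins, and its values did not overlap in 18. Among these 14, miR-3107, miR-143 and miR-29c rest on few serum counts, with 4 of miR-3107-3p, 2 of miR-143-5p and 7 of miR-29c-5p. For miR-133a the ratio was -5.71 ± 0.68 in disuse serum and -12.13 ± 0.56 in disuse muscle (SD, n = 5 each, 0.5 added to each count), so the 5p passenger strand was relatively commoner in serum. For miR-486 it was 10.52 ± 0.23 in disuse serum and 5.23 ± 0.26 in disuse muscle, with the 3p passenger strand relatively scarcer in serum. miR-142 had 6.26 ± 0.56 in disuse serum and 1.09 ± 0.70 in disuse muscle, and miR-145a went the other way, with 2.42 ± 0.72 and 8.48 ± 0.78. These 4 hairpins and miR-3107, with 4 serum counts of its 3p arm, had the widest gaps, each beyond the spread of the libraries.

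The more abundant arm differed between the sources beyond the spread of the libraries in let-7d and miR-423. let-7d had mostly 3p in disuse serum (-0.69 ± 0.38) and mostly 5p in disuse muscle (1.83 ± 0.44). miR-423 had mostly 5p in disuse serum (0.89 ± 0.17) and mostly 3p in disuse muscle (-1.44 ± 0.37). miR-199a had 0.10 ± 0.52 in disuse serum and -2.12 ± 0.46 in disuse muscle, so its arms were even in serum and mostly 3p in muscle. However, miR-199b-3p, with the same seed as miR-199a-3p, was counted separately. How reads were divided between them is not known, and the balance of miR-199a depends on it. In disuse serum miR-151 was mostly 3p (-3.28 ± 0.58), while in disuse muscle its arms were even (-0.02 ± 0.43). The serum to muscle difference of the ratio had the same sign in the young libraries for all 21 hairpins. For miR-133a it was 6.42 in disuse and 5.45 in young.

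**Figure D4:**
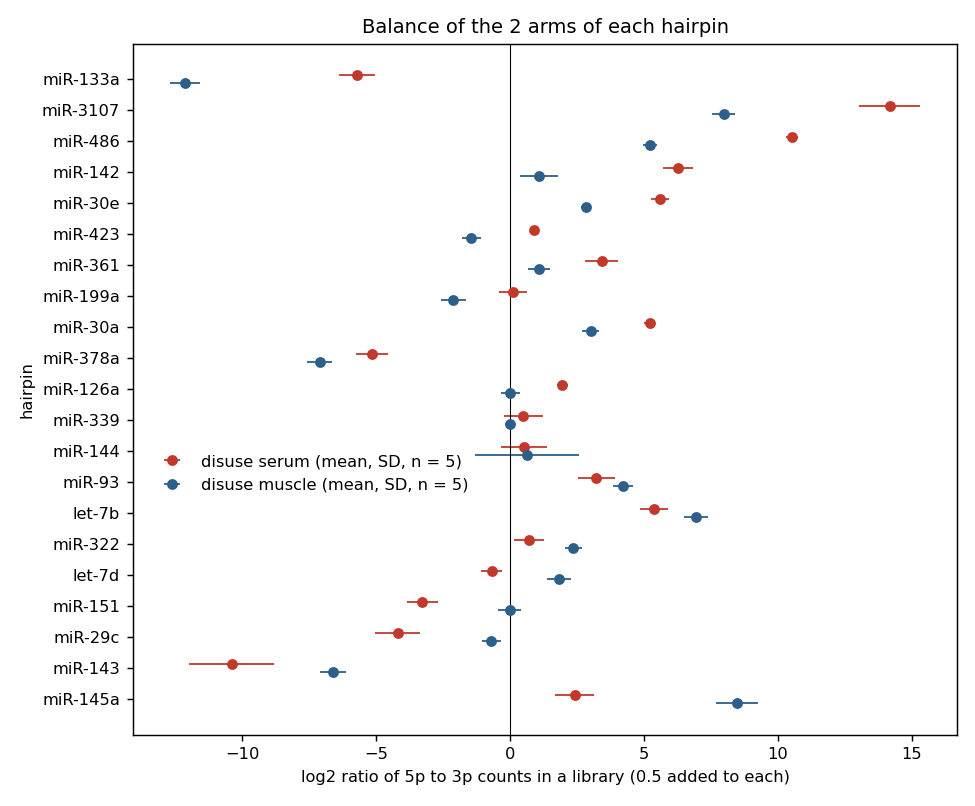
Log2 ratio of 5p to 3p counts (horizontal axis) in disuse serum, drawn above, and disuse muscle for 21 hairpins, as mean and SD of 5 libraries each. Hairpins are ordered by the serum to muscle difference, from miR-133a, where the 5p arm is relatively commoner in serum, down to miR-145a, where it is relatively scarcer.

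Few abundant miRNAs of either source were missing from the other. Of 264 miRNAs with a mean of at least 10 CPM in disuse serum, 11 had 0 counts in disuse muscle, and of 261 in disuse muscle, 7 had 0 counts in disuse serum. Those without a count in muscle were led by miR-200a-3p, and also held miR-200a-5p, miR-205-3p, miR-96-5p and miR-215-3p, further products of epithelial and gut hairpins, and the pancreatic miR-216a-5p, miR-216b-5p and miR-217-5p. The 10, 8 and 23 counts of these 3 pancreatic miRNAs all came from disuse serum 2, the library that was also highest for miR-375-3p. The other 3 were miR-3969, miR-135a-1-3p and miR-802-5p. Those without a count in serum were miR-154-5p, miR-29b-1-5p, miR-499-5p, miR-8111, miR-7035-3p, miR-1934-5p and miR-9-5p, at 10.5 to 51.1 CPM in muscle. For these 7 the floor of 3 counts over the pooled serum (3.14 CPM) gave differences of at least 3.09-fold to at least 15.7-fold, and for the 11 the floor in muscle (0.246 CPM) gave at least 33.9-fold to at least 598-fold. Serum was therefore the less deeply covered side, and a low level in it could not be told from none.

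The serum to muscle contrast was then set beside the same contrast in young mice, and no muscle miRNA passed the test in serum between disuse and young. The test of the difference of the serum to muscle difference between disuse and young called 0 of 241 miRNAs (0%; edgeR's quasi-likelihood test over all 29 libraries), with 24 (9.96%) at an unadjusted p under 0.05. DESeq2 and limma-voom also called 0. Leaving out disuse muscle 2 gave 1 call, miR-205-5p. Disuse serum against young serum, fitted over 14 serum libraries, had 0 of 165 called (0%), with 20 (12.1%) at an unadjusted p under 0.05, and again 0 with DESeq2 and limma-voom. Disuse muscle against young muscle, fitted over 15 muscle libraries, had 1 of 341 called (0.293%), with 29 (8.5%) at an unadjusted p under 0.05. Testing every miRNA with a count gave 5, 5 and 2 calls in these 3 comparisons. Simulated counts were used to see how many changes are recovered, over changed miRNAs that passed the filter on low counts. The test of the difference recovered 28.9% of 38 changes of 1 log2 unit and 45.2% of 42 changes of 2. Disuse against young serum recovered 60% of 20 and 100% of 23, and disuse against young muscle 61.8% of 55 and 98.3% of 58. Changes in miRNAs that the filter removed were left out of these shares. A lack of calls therefore does not show a lack of change. The log2 serum to muscle ratios of disuse and of young, which share no library, had a Pearson correlation of 0.985 over the 192 miRNAs, and 183 had the same sign (a description across miRNAs).

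In disuse serum the log2 fold change of miR-133a-3p was 0.01 (SE 0.37) against young serum. On the TMM scale of that fit, the 5 young serum libraries had 3415, 2543, 2604, 869 and 2141 CPM. On the same scale the disuse serum libraries had 3025, 907, 1280, 2873 and 3539 CPM, so the groups overlapped widely. In muscle its log2 fold change was 0.22 (SE 0.14), and the difference of the serum to muscle difference was 0.04 (SE 0.41); the sign of such a small value is not settled. The 5 members of the muscle list with enough serum counts (miR-133a-3p, miR-133a-5p, miR-486-5p, miR-486-3p and miR-3107-5p) had log2 fold changes of -0.13 to 0.15 in disuse serum, where the median over tested miRNAs was -0.09, and the 11 members tested in disuse muscle had -0.85 to 0.48. miR-133a-5p was at the low end in disuse muscle (-0.85, SE 0.29, adjusted p = 0.267, edgeR) and miR-133b-3p at the high end (0.48, SE 0.23, adjusted p = 0.564). Neither passed, and none of the 10 members of the muscle list in the test of the difference passed. Striated muscle miRNAs took 0.373, 0.0866, 0.111, 0.350 and 0.366% of counts in disuse serum 1 to 5, against 0.475, 0.254, 0.329, 0.0650 and 0.193% in young serum 1 to 5, and 48.0% ± 1.68 in disuse muscle, against 43.4% ± 4.63 in young muscle. All disuse serum values lay within the wider range of young serum.

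Red cell miRNAs gave no call between disuse serum and young serum, with 0 of 10 tested members of the list passing. For miR-451a the log2 fold change was -0.19 (SE 0.22) in disuse serum, and for miR-486-5p it was -0.12 (SE 0.37), and neither passed. The smallest p-values in the test of the difference were those of miR-205-5p (-2.89), miR-615-3p (1.97) and miR-3968 (3.27), each with an adjusted p of 0.275. In disuse serum against young serum they were miR-6240 (-3.12), let-7f-5p (-0.99) and miR-98-5p (-0.89), each at 0.358. The value of miR-6240 rested on young serum 4, at 1216 CPM on the TMM scale, against 29.2 to 66.9 CPM in the other 4 young libraries and 0 to 65.5 CPM in disuse serum, and it was called without a filter on low counts (-2.89). All 9 let-7 and miR-98 members had log2 fold changes below 0 (-0.99 to -0.17) with none passing. In disuse muscle against young muscle, miR-455-3p, a miRNA of cartilage and brown fat, was the one that passed: it had 5.60, 11.1, 16.0, 10.1 and 7.74 CPM in disuse muscle, against 7.29, 25.8, 30.6, 17.5 and 63.6 CPM in young muscle on the TMM scale (log2 fold change -1.83, SE 0.39, adjusted p = 0.0336, edgeR). The groups overlapped, since young muscle 1 was as low as the disuse libraries and young muscle 5 far above all others. In serum it had 1 library with counts, at 3.23 CPM in disuse serum 4. miR-92a-1-5p (1.03) and miR-6240 (-1.24) came next in muscle and did not pass. The call for miR-455-3p was lost with limma-voom (-1.78) and when disuse muscle 1, 2, 4 or 5 or young muscle 3 was left out, with log2 fold changes of -1.94 to -1.67, and when young muscle 5 was left out, with -1.26.

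**Figure D5:**
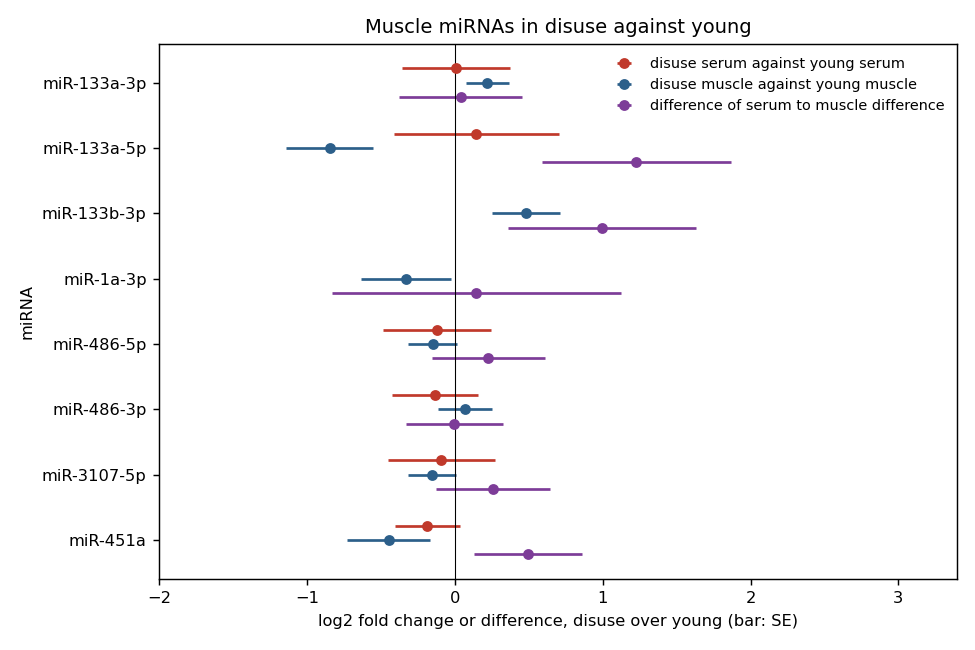
Log2 fold change of muscle miRNAs and miR-451a in disuse serum against young serum, disuse muscle against young muscle, and the difference of the serum to muscle difference between disuse and young (horizontal axis; points are estimates and bars 1 SE; edgeR). miR-133b-3p and miR-1a-3p had too few serum counts for the serum test and show no serum point; miR-133a-3p in serum lies at 0.01.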

How the data were processed

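Small RNA was sequenced from 5 disuse serum and 5 disuse muscle libraries, with 5 young serum and 5 young muscle libraries beside them. Per the labels' protocols, TruSeq small RNA libraries were amplified with up to 15 PCR cycles, and a gel cut of 145 to 160 bp was kept. The submitters' processing notes name Bowtie and the build mm10. The sources used here give no aligner version, miRNA annotation or treatment of multiply matching reads. Raw counts were deposited by the authors in 1 table, as reads of each mature miRNA in each library without normalization. Of its 1183 miRNAs, 488 had 28 values in place of 29 and were left out. With those values read from the right end of the table, their serum values were all 0. In disuse muscle they hold 5824 counts, or 0.0478% of disuse muscle counts. Each of the 29 columns carried the title of 1 sample.

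CPM are counts per 1000000 of the library total over the 695 miRNAs, unless the TMM scale is named. Differences were tested in R 4.3.3 with edgeR 4.0.16, by quasi-likelihood (glmQLFit, then glmQLFTest) after filterByExpr by group and TMM scaling. The adjusted p (Benjamini-Hochberg) had to be under 0.05. Disuse serum against disuse muscle was fitted over its 10 libraries, the difference of that difference between disuse and young over all 29, and disuse against young over 14 serum or 15 muscle libraries. Old libraries therefore share the spread, the scaling and the filter in the last 3. An SE is the fold change on the log2 scale over the square root of F. Values computed once per library were compared with two-sided exact permutation tests. The scripts were tested on simulated data. Alternatives were other scalings and filters, DESeq2 1.42.0, limma-voom (limma 3.58.1), the replicate number as a block, thinning to equal depth and leaving out each library.

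miRNAs were named by rule: the 10 most abundant of each source, the 10 highest and 10 lowest fold changes among called miRNAs with at least 100 CPM and groups that did not overlap, tested members of the muscle list, the 4 most abundant members of other lists, and the 3 smallest p-values of each disuse against young test. A few others are named as list members, as arms of a hairpin or for a count of 0, chosen after their values were seen. The groups, lists and rule were chosen with earlier results of these data known. Intervals and floors cover counting error only, since without molecular identifiers PCR copies were counted as reads.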

Additional observations from a re-analysis of the deposited data

Results flagged for a closer look

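Among 136 sets of 5 libraries, 11 had a library far from the other 4, where chance gives about 1 in 20 (Dixon's criterion of 0.71 of the range). In disuse serum, library 1 was high for miR-146a-5p (35297 CPM, the others 15359 to 18367) and miR-21a-5p (7203, the others 3167 to 4291). Disuse serum 2 was high for miR-375-3p (2145 CPM, the others 547 to 963). Disuse serum 4 was high for miR-24-3p (3736 CPM, the others 1381 to 1911) and listed at 0 for miR-3107-3p (the others 5.65 to 7.80).

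In disuse muscle, library 3, the shallowest of them, was high for miR-10b-5p (6940 CPM, the others 1945 to 3121), miR-127-3p (7815, the others 4032 to 4878) and miR-141-3p (3.93, the others 0.379 to 1.31), the last from few counts. Disuse muscle 1 was high for miR-196a-5p (2691 CPM, the others 1873 to 2007), disuse muscle 2 for miR-133b-3p (1487, the others 917 to 1074) and disuse muscle 5 for miR-1a-3p (1419, the others 397 to 688). For miR-21a-5p, miR-24-3p, miR-10b-5p, miR-127-3p, miR-196a-5p, miR-133b-3p, miR-1a-3p, miR-146a-5p, miR-375-3p, miR-3107-3p and miR-141-3p, disuse serum and disuse muscle did not overlap with these libraries included.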

How the results depend on the processing

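For disuse serum against disuse muscle, the 166 calls became 327 (of 644 tested) without a filter on low counts and 161 to 183 without single libraries. Of 65 miRNAs named for it, 4 changed sign under a setting. With library totals, log2 fold changes were 0.112 for miR-92a-3p, 0.0801 for miR-143-3p, 0.301 for miR-29a-3p and 0.0640 for miR-29c-3p. After thinning they were 0.0553 for miR-92a-3p, 0.308 for miR-29a-3p and 0.0265 for miR-29c-3p. For miR-29a-3p they were 0.0152 with DESeq2's factors and 0.0147 with DESeq2. The calls of miR-143-3p and miR-29c-3p were each lost with library totals, DESeq2, its factors, the limit of 10 CPM, thinning, the replicate block, all 29 libraries, and without disuse serum 2, 3 or 5 or disuse muscle 3 or 5 (miR-143-3p also without disuse muscle 2). That of miR-338-3p was lost with library totals (-0.377), all 29 libraries (-0.679) and without disuse serum 3 (-0.635), and that of miR-22-3p with library totals. miR-92a-3p was called with upper-quartile factors (-0.441), limma-voom (-0.357), library totals without the most abundant miRNA of each source (-0.597) and without disuse muscle 2 (-0.425). miR-29a-3p was called with those reduced totals (-0.425).

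For the difference of the serum to muscle difference, 0 calls became 5 without a filter and 0 to 1 without single libraries. In serum, 0 calls between disuse and young became 5 without a filter. In muscle, 1 call became 2 with upper-quartile factors or no filter, 0 with limma-voom, the replicate block or thinning, and 0 to 2 without single libraries (2 without young muscle 2).

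Small log2 values that did not pass changed sign. In the difference, miR-133a-3p had -0.0402 with DESeq2's factors, -0.181 with library totals, -0.117 with upper-quartile factors, -0.215 above 10 CPM, -0.0410 with DESeq2, -0.00619 with limma-voom, -0.0499 with the replicate block, -0.000997 thinned and -0.153 without old libraries. There miR-1a-3p had -0.157 above 10 CPM, -1.29 thinned and -0.108 without old libraries, miR-133b-3p had -0.348 thinned and miR-486-3p had 0.00577 with limma-voom. Without single libraries the ranges were -0.591 to 0.878 for miR-1a-3p, -0.229 to 0.268 for miR-133a-3p, -0.0982 to 0.617 for miR-486-5p, -0.293 to 0.189 for miR-486-3p, -0.0704 to 0.639 for miR-3107-5p and -0.130 to 0.578 for miR-451a. In disuse against young serum, miR-133a-3p had -0.0390 with library totals and -0.0641 with the replicate block. Without a filter there, miR-486-5p had 0.0491, miR-486-3p 0.0480 and miR-3107-5p 0.0780, and miR-3107-5p had 0.00369 with library totals and 0.0250 with limma-voom. Without single serum libraries the ranges were -0.188 to 0.308 for miR-133a-3p, -0.246 to 0.571 for miR-133a-5p, -0.283 to 0.241 for miR-486-5p, -0.254 to 0.0455 for miR-486-3p, -0.255 to 0.260 for miR-3107-5p and -0.267 to 0.138 for miR-451a.

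Apart from the settings' own construction (more miRNAs tested, fewer libraries or counts), the causes were not tested. Whether replicate numbers pair the samples could not be settled. Deviations of disuse serum and disuse muscle libraries of the same number correlated at -0.11 to 0.07, and number 5 alone matched itself best. Serum and muscle of the same animal need not share such deviations, so low correlations do not show that the samples were unpaired. With the number as a block, 162 miRNAs were called between disuse serum and disuse muscle, and 0 in each test against young. In exact tests over 5 pairs, the differences in top share (-23.8 percentage points) and in effective number (8.62) had p = 0.0625, the smallest 5 pairs allow. Depth limits the serum side, where miR-133b-3p, miR-1a-3p, miR-206-3p, miR-133a-5p and miR-3107-3p rest on at most 48 counts in all.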
